A study of Mus musculus with 6 samples.

Results

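The immediate early and stress genes are 42 genes taken as a fixed list of symbols and followed here through the brightest probe set of each, the one with the highest mean signal over all arrays. All 42 were found among the 18029 genes with a named probe set, and together they had 79 of the 38195 probe sets tested. They were grouped as AP-1 and related bZIP factors (10 genes), EGR (4), NR4A (3), KLF (5), CEBP (2), IER (4), BTG (2), ZFP36 (3), GADD45 (3) and 6 others. Expression was measured on Affymetrix arrays in hearts of 3 Tmbim1 KO mice and 3 Flox wild type mice, which the series calls biological samples. All were C57BL/6 mice, given as 8 weeks old, and had undergone aortic binding surgery for 2 weeks, taken here as aortic banding, a constriction that raises the load on the left ventricle. The hearts went straight into an RNA preservative after dissection. The driver and extent of the Tmbim1 deletion are not given in the sources used here, and hearts without a band were not analysed here. The comparison therefore asks how the genotypes differ under load, and a difference is the knockout mean log2 signal less that of wild type, over 3 mice each.

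Immediate early genes are transcribed within minutes of a stimulus, with no need for new protein. Growth factors, stretch, cytokines and tissue injury reach them through the MAP kinases, through serum response factor (SRF) with its TCF and MRTF cofactors, and through CREB. Many encode transcription factors that start a later round of expression, and their transcripts are short-lived. In heart muscle they are known for their brief induction soon after a rise in load, and they are also known to respond to the handling of tissue.

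The sequences printed here come from just upstream of 4 members that rose in knockout hearts and of Zfp36. Those of Egr2, Zfp36, Maff and Btg2 hold a match to an SRF or CREB element, and that of Fosl2 only a match to an EGR site. RefSeq promoters (GRCm38.p6) were at hand for 32 of the 42 genes, and the 250 bases before each start were searched on both strands. Fosl1, Egr1, Egr3, Klf10, Cebpd, Ier2, Zfp36l2, Myc, Arc and Bhlhe40 were not among them. Sequence farther from a start was not searched, and a gene counted if any of its annotated starts held a match. The core of the serum response element, the CArG box, was found in 2 of the 32 genes (6.25%) and in 1.62% of the 27025 genes of the table. Its matches are printed in capitals, 5′ to 3′ on the strand of the gene. The Egr2 stretches come from 2 of its annotated starts, at chr10:67537484-67537513 and chr10:67537787-67537816 on the plus strand, and the Zfp36 stretch from chr7:28379267-28379296 on the minus strand.
Egr2, upstream start: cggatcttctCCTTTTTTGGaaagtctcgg
Egr2, downstream start: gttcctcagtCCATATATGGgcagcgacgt
Zfp36: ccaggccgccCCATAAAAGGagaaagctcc

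The CREB and ATF element TGACGTCA, which reads the same on both strands, was also found in 2 of the 32 genes (6.25%) and in 1.77% of all genes. Both holders, Maff and Btg2, rose in knockout hearts, as described below. The Maff stretch lies at chr15:79347480-79347509 on the plus strand, before 1 of its annotated starts. The Btg2 window is the whole 250 bases at chr1:134079156-134079405 on the minus strand, in which capitals mark the TGACGTCA and, further on, a match to GCGNGGGCG, the site bound by EGR proteins.
Maff: ggctggggcggTGACGTCActgcatgactg
Btg2: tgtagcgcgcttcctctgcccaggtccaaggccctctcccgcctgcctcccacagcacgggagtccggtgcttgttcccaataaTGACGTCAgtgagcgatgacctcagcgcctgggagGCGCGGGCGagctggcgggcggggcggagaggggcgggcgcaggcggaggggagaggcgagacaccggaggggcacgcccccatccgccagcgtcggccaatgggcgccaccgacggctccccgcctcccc

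GCGNGGGCG was present in 11 of the 32 genes (34.4%), against 5.33% of all genes. The members' windows were richer in G and C, with a median of 64.6% against 52.4% over all genes, and how far this accounts for the count was not tested. The 11 were Btg2, Fosb, Fosl2, Gadd45b, Klf2, Klf4, Maff, Mafk, Nr4a1, Nr4a2 and Zfp36. The AP-1 site TGACTCA or TGAGTCA was found upstream of 1 member, Csrnp1 (3.12%, against 5.16% of all genes). Of the 9 members that rose and had a promoter at hand, 3 held GCGNGGGCG, 2 TGACGTCA, 1 the CArG box and 0 the AP-1 site. A match is only a run of letters, and binding was not measured. The Fosl2 window, at chr5:32136222-32136471 on the plus strand, is shown as an AP-1 gene that rose and carries the EGR letters, in capitals.
Fosl2: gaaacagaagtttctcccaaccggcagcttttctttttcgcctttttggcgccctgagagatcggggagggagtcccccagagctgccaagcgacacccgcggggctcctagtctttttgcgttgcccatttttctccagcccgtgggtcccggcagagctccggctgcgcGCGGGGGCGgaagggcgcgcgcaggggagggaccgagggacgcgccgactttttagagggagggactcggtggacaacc

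Tmbim1, the targeted gene, read 7.53, 7.49 and 7.56 in knockout hearts, against 8.58, 8.38 and 8.33 in wild type hearts (difference -0.91, SE 0.10, limma adjusted p = 0.00579), with no overlap. Its call ended without knockout replicate 2 (-0.89, adjusted p = 0.0512) and without knockout replicate 1 and wild type replicate 3 together (-0.96, adjusted p = 0.0607). Where its probes lie relative to the deletion is not known. The 7 markers of ventricular cardiomyocytes were bright on all 6 arrays, from 9.86 for Ryr2 to 13.71 for Myl2. Knockout replicate 1 alone carried the atrial genes Myl7, Myl4 and Sln at 12.86, 12.98 and 12.17, where the other 5 arrays lay between 2.42 and 4.87. Wild type replicate 3 lay farthest out on the first principal component (-37.0, with -8.48 and -9.65 in the other wild type arrays). For these reasons the leading counts are also given without those arrays. Signals of different probe sets are not comparable as levels, so only differences are set side by side. In bulk hearts, fewer cells of a type and less RNA per cell cannot be told apart.

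The immediate early and stress genes stood higher in knockout hearts. Because the list was chosen with earlier results known, the shares over all genes are given for scale and test nothing. Of the 42, 37 had a positive difference, against 49.4% of all genes, and their median was 0.55, against -0.0020 over all genes. After adjustment over all 38195 probe sets, 10 members rose and 0 fell, against 0.322% of all genes that rose and 0.227% that fell. The 10 were Egr2, Apold1, Atf3, Cebpd, Ier3, Gadd45g, Btg2, Ier5, Fosl2 and Maff. At an unadjusted limma p under 0.05, 29 members were higher, where 5.19% of all genes were, and 2 were lower, where 6.33% of all genes were.

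In 24 of the 42 genes every knockout heart lay above every wild type heart, a pattern seen in 7.34% of all genes. In 1, Gadd45a, every knockout heart lay below, as in 9.38% of all genes. The arrays of a group also differed among themselves. Set against the wild type mean of each gene, the median member stood at 0.66, 0.29 and 0.65 in knockout replicates 1, 2 and 3, against 0.17, -0.05 and -0.08 in wild type replicates 1, 2 and 3. Knockout replicate 2 was the lowest of the knockout hearts in 24 of 42 genes and the highest of all 6 arrays in 0. Wild type replicate 1 was the highest of the wild type hearts in 28 of 42, and wild type replicate 3 the lowest of them in 21. Leaving out knockout replicate 1, the array with atrial genes, gave a median of 0.51 and 5 members that rose. Without wild type replicate 3 the median was 0.58 and 7 rose, and without both of these arrays it was 0.49 and 4 rose.

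**Figure D1:**
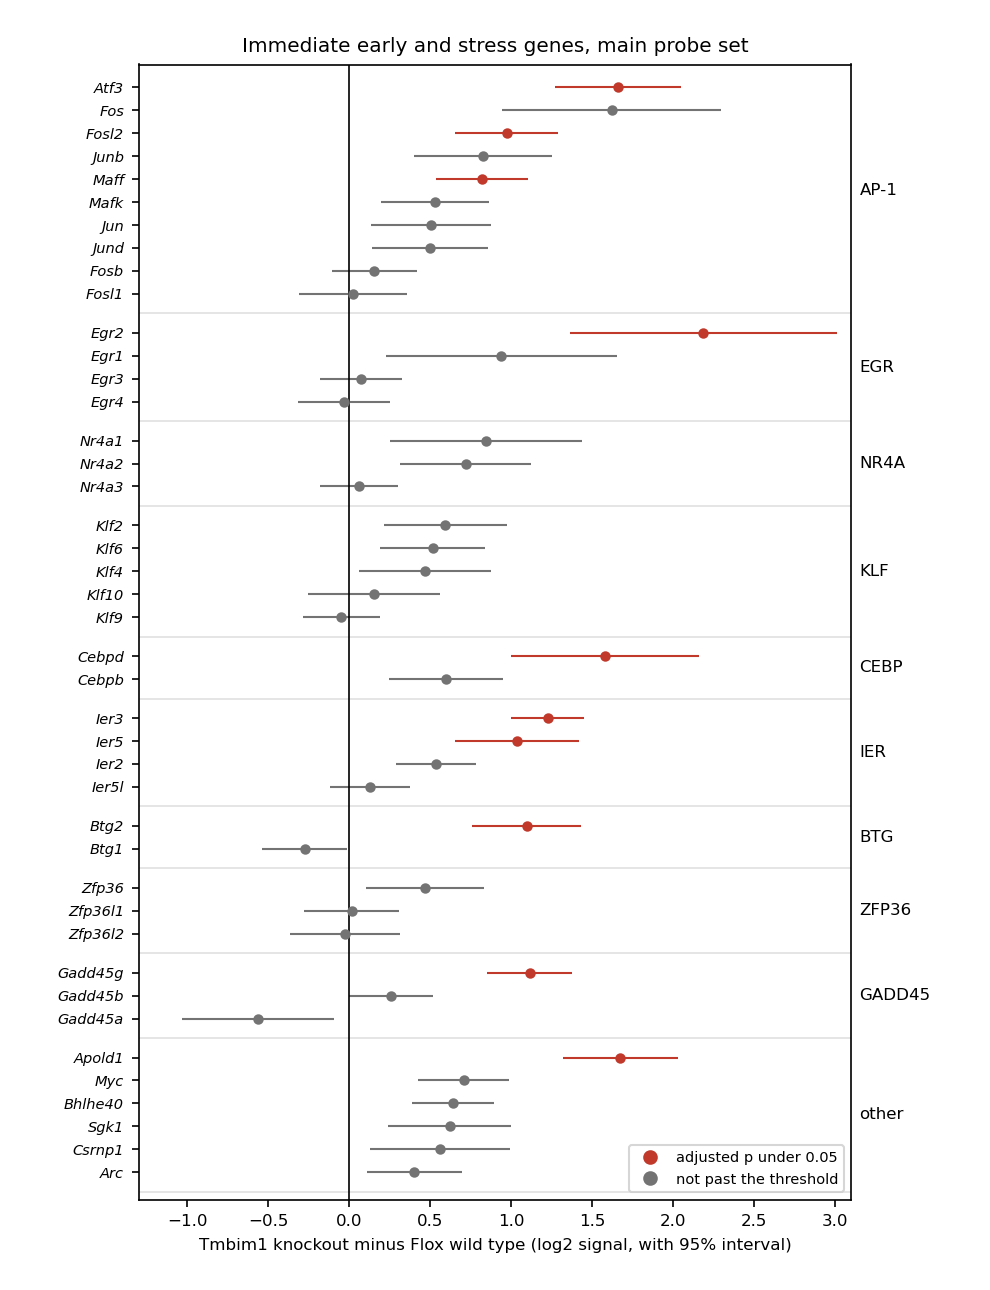
Difference between knockout and wild type hearts (horizontal axis, log2 signal) for the main probe set of each of the 42 genes, grouped by family, with the 95% interval of limma for each gene alone, not adjusted for the number of genes. The 10 genes that passed the adjusted threshold are red, and 37 of 42 points lie right of 0.

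AP-1 is a dimer of a Fos and a Jun protein, and ATF and small Maf proteins are relatives that share its leucine zipper. All 10 genes of this family had a positive difference, with a median of 0.67, and 3 rose. Atf3, a repressor and activator induced by many kinds of cell stress, read 8.17, 7.50 and 8.06 in knockout hearts, against 6.45, 6.25 and 6.04 in wild type hearts. Its groups did not overlap, a 3.16-fold difference (1.66, SE 0.17, limma adjusted p = 0.00485). Fosl2, a Fos family member that lacks the strong transactivation domain of Fos, read 6.85, 6.61 and 6.84 in knockout hearts, against 6.11, 5.59 and 5.67 in wild type hearts (0.97, SE 0.14, adjusted p = 0.0273). Maff, a small Maf protein with no activation domain, read 6.44, 6.45 and 6.57 in knockout hearts, against 5.92, 5.66 and 5.43 in wild type hearts (0.82, SE 0.13, adjusted p = 0.0348). In both genes the groups did not overlap and the knockout hearts were the closer together. Leaving out single arrays ended the calls of Fosl2 (adjusted p up to 0.121) and Maff (up to 0.147), except without wild type replicate 1.

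Fos, the founding member of the family, had nearly the same mean difference as Atf3 and did not pass. It read 7.19, 6.77 and 6.39 in knockout hearts, against 5.59, 4.38 and 5.52 in wild type hearts (1.62, SE 0.30, limma adjusted p = 0.0641). Its groups did not overlap, and the wild type hearts were spread, with an SD of 0.68 and replicate 2 lowest. Of the Jun genes, Junb was at 0.83 (5.86 ± 0.29 in knockout hearts and 5.03 ± 0.36 in wild type hearts, SD, n = 3; adjusted p = 0.130), Jun at 0.50 (adjusted p = 0.289) and Jund at 0.50 (adjusted p = 0.270). The groups were separate in Jun and Junb and overlapped in Jund. Mafk, another small Maf gene, was at 0.53 (adjusted p = 0.202), with separate groups, and at 0.34 without knockout replicate 1 and wild type replicate 3 together. Fosb (0.16) and Fosl1 (0.02) had intervals that included 0, from -0.11 to 0.42 and from -0.31 to 0.36. Fosb was the 1 member below the lower quartile of every array, at 2.26 in knockout hearts and 2.11 in wild type hearts, so a difference there can be compressed.

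The EGR factors are zinc finger proteins that bind the GC-rich site shown above, and their genes are reached through SRF. Egr2 had the largest difference of the 42 members, with rank 9 among the rises of all 18029 genes. It read 6.38, 6.33 and 5.84 in knockout hearts, against 4.64, 4.42 and 2.92 in wild type hearts, a 4.55-fold difference (2.19, SE 0.37, limma adjusted p = 0.0444). The groups were far apart, and the spread in wild type hearts came mostly from replicate 3. Without that array the difference was 1.65 and its adjusted p was 0.00878. Without any other single array the call ended, with adjusted p from 0.0529 to 0.196, and it ended with all arrays under a trended and robust variance prior (adjusted p = 0.215). A second probe set of Egr2 also rose, by 1.92 (SE 0.24, adjusted p = 0.0113).

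Egr1, the best studied EGR gene in load and stretch, read 8.50, 8.11 and 7.92 in knockout hearts, against 7.96, 6.41 and 7.34 in wild type hearts (0.94, SE 0.32, limma adjusted p = 0.304). Wild type replicate 1 lay above knockout replicate 3, so the groups overlapped. Without wild type replicate 2, its lowest array, the difference was 0.52. Egr4 was at -0.03 (adjusted p = 0.968). Egr3 depended on the probe set. At its main one it read 5.70, 5.71 and 5.50 in knockout hearts, against 5.50, 5.44 and 5.75 in wild type hearts (0.07, adjusted p = 0.893). At the other, it read 6.06, 5.97 and 6.01 in knockout hearts, against 5.26, 5.10 and 4.56 in wild type hearts (1.04, SE 0.16, adjusted p = 0.0347). The groups overlapped at the main probe set and were separate at the other.

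**Figure D2:**
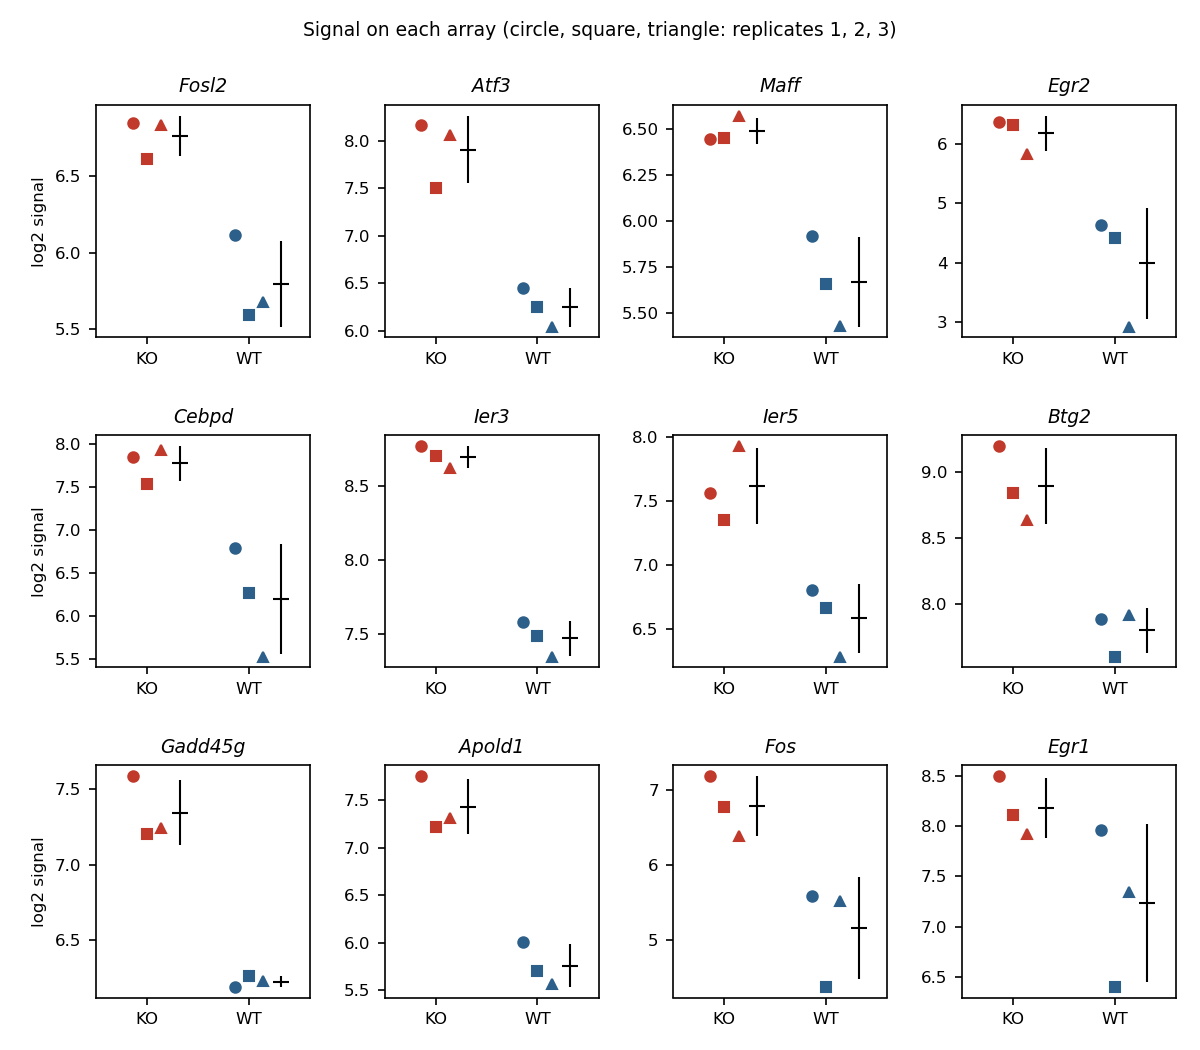
Signal (log2) on each array for the 10 genes that rose, with Fos and Egr1, which did not pass; symbols give the replicate number, and black marks the mean with its SD (n = 3). Knockout arrays (red) lie above all wild type arrays (blue) in each panel except Egr1. Wild type replicate 3 is the low point for Egr2, Cebpd, Apold1, Atf3, Ier3, Ier5 and Maff.

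The NR4A genes encode orphan nuclear receptors whose activity follows their amount rather than a ligand. None of the 3 passed at its main probe set. Nr4a1 read 8.78, 7.77 and 7.76 in knockout hearts, against 7.61, 6.91 and 7.25 in wild type hearts (0.84, SE 0.26, limma adjusted p = 0.259), with knockout replicate 1 well above the others. Without that array, which also carried the atrial genes, the difference was 0.51. Nr4a2 read 5.81, 5.51 and 5.16 in knockout hearts, against 4.99, 4.44 and 4.88 in wild type hearts (0.72, SE 0.18, adjusted p = 0.166). The groups were separate in both genes. The main probe set of Nr4a2 is of a kind that can match other genes too, and its other probe sets ranged from -0.0011 to 0.80. Nr4a3 was at 0.06 at its main probe set (adjusted p = 0.910) and at 0.99 at a second one (SE 0.20, adjusted p = 0.0849), where it read 6.38, 5.85 and 5.65 in knockout hearts, against 5.32, 4.75 and 4.84 in wild type hearts. Those groups did not overlap.

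The KLF factors are zinc finger proteins that bind GC boxes, and Klf2 and Klf4 are known for their induction in endothelium by blood flow. None of the 5 passed, 4 had a positive difference, and the median was 0.47. Klf2 read 8.07, 7.60 and 8.35 in knockout hearts, against 7.48, 7.29 and 7.47 in wild type hearts (0.59, SE 0.17, limma adjusted p = 0.214). Klf4 read 8.54, 8.07 and 8.93 in knockout hearts, against 8.14, 8.02 and 7.98 in wild type hearts (0.47, SE 0.18, adjusted p = 0.391). Both genes shared their order among the knockout hearts, with replicate 3 highest and replicate 2 lowest, which for Klf4 lay inside the wild type range. Without knockout replicate 3 the Klf4 difference was 0.26. Klf6, an early response gene in vascular injury, was at 0.51 (adjusted p = 0.204), with separate groups there and in 3 of its 4 other probe sets. Klf10, induced by TGF-beta, was at 0.15 and the glucocorticoid-induced Klf9 at -0.05, and in both the groups overlapped. The 7 probe sets of Klf9 all lay between -0.15 and 0.14.

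C/EBP beta and delta are bZIP factors of the acute phase response. Cebpd read 7.85, 7.54 and 7.93 in knockout hearts, against 6.79, 6.27 and 5.52 in wild type hearts, a 2.99-fold difference (1.58, SE 0.26, limma adjusted p = 0.0405). The wild type hearts were the more spread, the SD being 0.21 in knockout hearts and 0.64 in wild type hearts. Its call held without wild type replicate 1 or 3 and ended without any other single array (adjusted p from 0.107 to 0.158), and under the trended and robust variance prior (adjusted p = 0.0993). A second, dimmer probe set stood at 0.27 (adjusted p = 0.491). Cebpb, at 0.60 (SE 0.16, adjusted p = 0.179), had separate groups, as had its second probe set, at 0.66. Cebpb read 8.06, 7.69 and 8.21 in knockout hearts, against 7.50, 7.55 and 7.12 in wild type hearts.

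The IER genes share an early response and are otherwise unlike, except Ier2, Ier5 and Ier5l, which are related. Ier3, a short-lived regulator of cell survival and an NF-kB target, read 8.77, 8.71 and 8.62 in knockout hearts, against 7.58, 7.49 and 7.35 in wild type hearts. With SDs of 0.08 in knockout hearts and 0.12 in wild type hearts, it gave the smallest adjusted p of the 42 genes (1.23, SE 0.10, limma adjusted p = 0.00124). It stayed past the threshold in all 14 alternatives, with values from 1.13 to 1.28. Ier5, which acts on the heat shock factor HSF1, read 7.57, 7.35 and 7.94 in knockout hearts, against 6.80, 6.66 and 6.28 in wild type hearts (1.04, SE 0.17, adjusted p = 0.0405). Its groups were separate, but it lost its call without any single array (adjusted p from 0.0623 to 0.142), and its other probe sets stood at 0.11 and 0.47. Ier2 was at 0.53 (SE 0.11, adjusted p = 0.0950), with separate groups, and Ier5l at 0.13 (adjusted p = 0.771).

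BTG proteins restrain proliferation and recruit the deadenylase that shortens mRNA tails. The 2 genes differed in sign. Btg2 read 9.20, 8.84 and 8.64 in knockout hearts, against 7.88, 7.60 and 7.91 in wild type hearts, a 2.14-fold difference (1.10, SE 0.15, limma adjusted p = 0.0179). A second probe set of Btg2 was at 0.81 with separate groups (adjusted p = 0.0820). Without wild type replicate 1 or 2, or knockout replicate 2, its adjusted p was 0.0541, 0.0719 and 0.0991. Btg1 read 8.07, 8.06 and 8.27 in knockout hearts, against 8.44, 8.57 and 8.21 in wild type hearts (-0.28, SE 0.12, adjusted p = 0.447), and its groups overlapped.

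The ZFP36 proteins bind AU-rich elements and speed the decay of cytokine and immediate early transcripts. None of the 3 genes passed and all had overlapping groups. Zfp36, which encodes tristetraprolin and carries the CArG letters shown above, read 6.64, 6.02 and 6.47 in knockout hearts, against 6.01, 5.67 and 6.04 in wild type hearts (0.47, SE 0.16, limma adjusted p = 0.321). Zfp36l1 was at 0.02 and Zfp36l2 at -0.03, with intervals from -0.28 to 0.31 and from -0.37 to 0.31.

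GADD45 proteins are small stress sensors that bind the p38 and JNK kinase MEKK4 and cell cycle regulators, and 1 of their 3 genes rose. Gadd45g read 7.59, 7.20 and 7.24 in knockout hearts, against 6.19, 6.26 and 6.23 in wild type hearts (1.11, SE 0.12, limma adjusted p = 0.00485). The wild type hearts lay close together, the SD being 0.21 in knockout hearts and 0.04 in wild type hearts, and the call held in all 14 alternatives. Gadd45b was at 0.26 (adjusted p = 0.480), with wild type replicate 2 inside the knockout range. Gadd45a, which p53 induces, was the most negative member. It read 6.04, 6.16 and 6.27 in knockout hearts, against 6.46, 7.31 and 6.40 in wild type hearts (-0.56, SE 0.21, adjusted p = 0.357). Its groups were separate, with wild type replicate 2 far above the rest, and without that array the difference was -0.27.

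**Figure D3:**
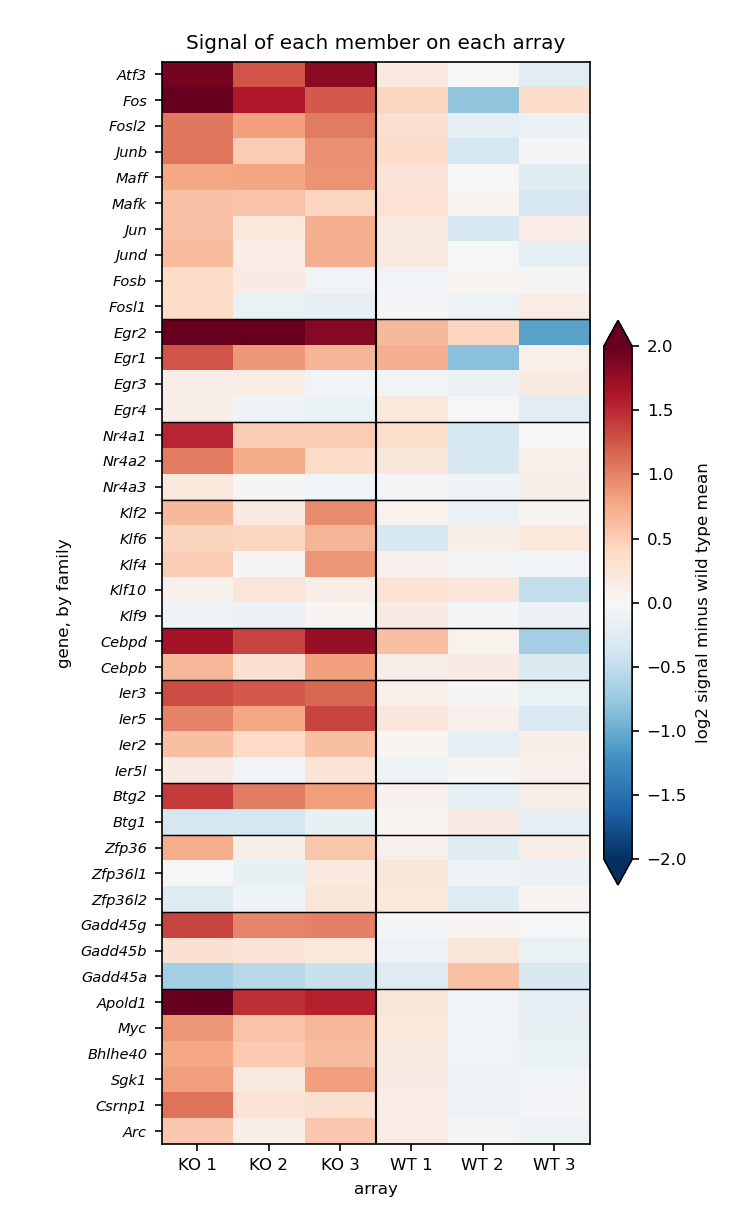
Signal of each of the 42 genes (rows, by family) on each array (columns), as log2 signal minus the wild type mean of the gene, with the colour scale stopping at -2 and 2. The knockout columns are mostly red, knockout replicate 2 is paler than the other knockout arrays, and Btg1 and Gadd45a are blue in all 3 knockout columns.

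The 6 remaining members all had a positive difference, with a median of 0.63, and 1 rose. Apold1, an early response gene of endothelial cells, read 7.76, 7.22 and 7.32 in knockout hearts, against 6.01, 5.70 and 5.57 in wild type hearts, a 3.19-fold difference (1.67, SE 0.16, limma adjusted p = 0.00307). It stayed past the threshold in all 14 alternatives, with values from 1.42 to 1.80. Over the same hearts, 0 of 8 endothelial markers passed, their median difference was -0.07, and the single markers ran from -0.21 for Kdr to 0.45 for Vwf, with 3 of 8 positive. The growth regulator Myc (0.71, SE 0.13, adjusted p = 0.0539) and the clock-linked repressor Bhlhe40 (0.64, SE 0.11, adjusted p = 0.0520) lay just outside the threshold. Myc read 5.56, 5.24 and 5.34 in knockout hearts, against 4.88, 4.61 and 4.52 in wild type hearts. Bhlhe40 read 7.92, 7.67 and 7.78 in knockout hearts, against 7.32, 7.10 and 7.02 in wild type hearts. In both, all knockout hearts lay above all wild type hearts. The kinase gene Sgk1, induced by serum and glucocorticoids, was at 0.62 (adjusted p = 0.197) and the nuclear factor gene Csrnp1 at 0.56 (adjusted p = 0.314), both with separate groups. Without knockout replicate 1, the array with atrial genes, Csrnp1 stood at 0.30. Arc, known for its role at synapses, was dim and at 0.40 (adjusted p = 0.281), with overlapping groups.

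The other probe sets of the members were compared with the main ones, since a gene call here rests on 1 probe set. Of the 42 genes, 22 had 1 probe set and 20 had more, which added 37 probe sets. Of these 37, 30 had a positive difference, 32 had the sign of their gene's main probe set, and 2 rose, those of Egr2 and Egr3. Over all 79 probe sets of the members 12 rose, against 0.238% of all probe sets. The median over the 37 was 0.18, below the 0.55 of the main ones. Of the 10 genes that rose, Fosl2, Cebpd and Ier5 had dimmer probe sets at 0.21, 0.27 and 0.11. When all probe sets of a gene were averaged, these 3 genes no longer passed (adjusted p = 0.0718, 0.0718 and 0.106), Egr3 did (0.56, adjusted p = 0.0367), and so did Bhlhe40 (adjusted p = 0.0410).

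**Figure D4:**
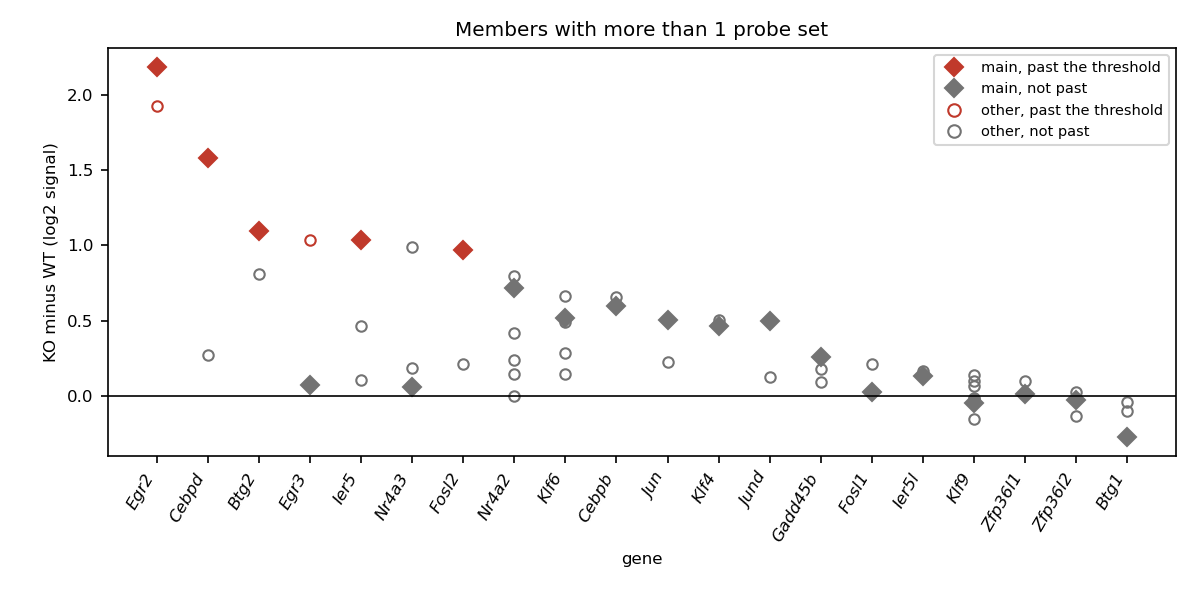
Difference between knockout and wild type hearts (vertical axis, log2 signal) for every probe set of the 20 members with more than 1, where diamonds are the main probe sets and circles the others, and red marks those past the adjusted threshold. Egr2 is red in both of its probe sets, Egr3 only in the circle at 1.04, and the main diamonds of Cebpd, Ier5 and Fosl2 stand above their circles.

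Genes upstream of the members, their partners and other early genes were listed as well. The ERK, JNK and p38 cascades, with 13 of 18 listed genes analysed, had 0 past the threshold in either direction and a median of 0.02. The kinase gene Mapkapk2, downstream of p38, was at -0.33, Rps6ka3 at 0.30 and Mapk14, which encodes p38 alpha, at -0.22. Arrays measure the transcripts of these kinases and not their activity. Of 11 genes for SRF, its cofactors and CREB factors, 0 passed, with a median of 0.0013. Mrtfb and Myocd, which encode SRF cofactors of the myocardin family, were at -0.42 (SE 0.09, limma adjusted p = 0.114) and -0.47 (SE 0.17, adjusted p = 0.339), and Crem, a CREB relative, at 0.59 (SE 0.14, adjusted p = 0.136). Mrtfb read 7.47, 7.41 and 7.46 in knockout hearts, against 7.78, 7.88 and 7.93 in wild type hearts, with groups apart.

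Family members outside the 42 were listed too. Of 13 other bZIP partners of AP-1, 0 passed, with a median of 0.02, Jdp2 at 0.47, Atf4 at 0.30 and Nfe2l2 at 0.29. The 11 other KLF genes had a median of -0.08 and 0 past the threshold, with Klf15, a repressor of hypertrophy in cardiomyocytes, at -0.49 (SE 0.17, limma adjusted p = 0.301), Klf16 at 0.29 and Klf7 at 0.25. Klf15 read 5.66, 5.27 and 5.96 in knockout hearts, against 5.99, 6.07 and 6.31 in wild type hearts. Its groups were separate by a narrow margin. The 3 other CEBP genes, Cebpa, Ddit3 and Cebpg, were at 0.19, 0.19 and 0.13. The EGR corepressor genes Nab2 and Nab1 were at 0.18 and 0.17. Rxra, a heterodimer partner of some NR4A receptors, was at -0.17. None of these genes passed the threshold.

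Of 28 other immediate early genes, also listed with earlier results known, 27 had a positive difference, against 49.4% of all genes. Their median was 0.28. In 12 every knockout heart lay above every wild type heart, against 7.34% of all genes. After adjustment 3 rose, against 0.322% of all genes, and 0 fell, against 0.227%. The 3 were the prostaglandin synthase gene Ptgs2, the EGF receptor inhibitor gene Errfi1 and the cytokine signalling inhibitor gene Socs3. Errfi1 read 8.42, 8.31 and 8.05 in knockout hearts, against 7.36, 6.91 and 7.15 in wild type hearts (1.12, SE 0.14, limma adjusted p = 0.0102). Socs3 read 6.25, 6.27 and 6.64 in knockout hearts, against 5.47, 4.89 and 5.20 in wild type hearts (1.20, SE 0.16, adjusted p = 0.0153). Ptgs2 was at 1.76 (SE 0.15, adjusted p = 0.00124). In all 3 the groups were separate.

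Heat shock genes and cell type markers in the same hearts are given next, and whether they relate to these genes was not tested. Of 11 heat shock genes analysed, which are sensitive to handling and stress, 2 rose, the near-identical copies Hspa1b (2.33, adjusted p = 0.00579) and Hspa1a (2.20, adjusted p = 0.0429), which probes may not tell apart. Over all genes 0.322% rose. In this list 6 had separate groups with the knockout hearts above, against 7.34% of all genes, and 1, Hspd1, had them below, against 9.38%. The summed log2 signal lay between 104.96 and 108.08 in knockout hearts, against 99.51 to 101.25 in wild type hearts. Hspa1b and Hspa1a made most of that gap, and the remaining genes of the list ran from -0.20 for Hspd1 to 0.39 for Hspb1. None of the 8 macrophage and monocyte markers passed, with a median of 0.28 and sums from 62.50 to 63.66 in knockout hearts, against 59.35 to 62.52 in wild type hearts. None of the 7 fibroblast markers did, with a median of 0.40 and sums of 68.41, 68.22 and 67.39 in knockout hearts, against 66.87, 66.63 and 61.12 in wild type hearts. Wild type replicate 3 was far the lowest of these, with Postn at 8.98 there. The 6 neutrophil markers had sums from 25.09 to 26.55 in knockout hearts, against 23.05 to 23.91 in wild type hearts, with S100a9 at 1.32 (adjusted p = 0.0641), S100a8 at 0.95 (adjusted p = 0.109) and the other 4 between -0.02 and 0.16. The 7 ventricular cardiomyocyte markers were all lower in knockout hearts in the mean (median -0.11), and none passed the threshold. In 6 every knockout heart lay below every wild type heart, against 9.38% of all genes. Myl2 and Actc1, at 13.62 and 13.59 in knockout hearts, lay near the highest array signals (13.66 to 13.78), where differences can be compressed. The 7 smooth muscle and pericyte markers had a median of 0.06. On knockout replicate 1 Acta2, Cnn1 and Tagln were the highest of all 6 arrays, at 10.53, 8.08 and 9.11. Myh11, Rgs5, Pdgfrb and Cspg4 were not, and Myh11, at 6.69 there, lay below all wild type hearts. Of the 6 atrial markers Nppa alone passed, a gene that ventricles also express under load (1.19, adjusted p = 0.0496). None of 5 T cell and 2 red blood cell markers did, with medians of -0.05 and 0.20.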

How the data were processed

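The deposited table holds log2 probe set values on Affymetrix arrays, made by the authors with RMA per the submitters' processing notes, which also name limma; versions and settings are not given in the sources used here. It has 38208 rows, of which 13 controls were left out. Of the 38195 tested, 34325 had 1 gene symbol in the platform annotation, 62 several and 3808 none. No further normalization was applied. With 3 samples a group, the number of arrays limits the precision. The p-values set each difference against the spread within groups, which limma moderates with a variance prior taken over all probe sets. Correlations between arrays ran from 0.989 to 0.996 and array medians from 4.24 to 4.28.

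Knockout and wild type were compared with limma 3.58.1 in R 4.3.3 (lmFit and eBayes, two-sided), with Benjamini-Hochberg adjustment over all tested probe sets and a threshold of 0.05. The procedure was tested on simulated data. A gene was represented by its probe set with the highest mean over 6 arrays. All 42 members are named; of each pathway list, the genes past the threshold or otherwise up to 3 with the smallest unadjusted p are named, and marker genes beyond these were picked after their values were seen. The members and lists were chosen with earlier results of these data known. Results were recomputed without each array, without 2 arrays together, with the replicate number as a block, with weights for array quality, with a variance prior both trended and robust, after centring arrays on their medians, after quantile normalization was repeated, above the 40th percentile of signal, and with a gene's probe sets averaged.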

Additional observations from a re-analysis of the deposited data

How the results depend on the processing

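With all 6 arrays, 9 to 11 members rose under the alternatives, and the median member difference stayed between 0.49 and 0.69 in all 14. The threshold depended on the arrays: without single arrays 4 to 7 members and 38 to 86 probe sets passed, and without knockout replicate 1 and wild type replicate 3 together 4 members and 29 probe sets did, where 161 probe sets passed with all arrays. With the probe sets of a gene averaged, 84 genes passed. The Tmbim1 difference lay between -0.96 and -0.83 when single arrays were left out, losing its call without knockout replicate 2, and was -0.96 without both arrays (adjusted p = 0.0607). Of the 10 members that rose, Atf3, Ier3, Gadd45g and Apold1 passed without any single array, and all of these except Atf3 passed in all 14 alternatives. Atf3 lost its call without both arrays (adjusted p = 0.0550).

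Same-numbered arrays deviated together with correlations of 0.0603, 0.138 and 0.0155, where differently numbered arrays had correlations from -0.144 to 0.0753. Whether the replicate numbers pair the samples cannot be told from these values, and the main fit did not use them. With the replicate block 10 members and 168 probe sets passed: Ier5 (adjusted p = 0.0756) and Maff (adjusted p = 0.0567) were lost, and Junb (adjusted p = 0.0263) and Myc (adjusted p = 0.0400) were gained. The sign changed for 7 members, none of them past the threshold. When single arrays were left out, the difference ran from -0.150 to 0.116 for Fosl1, from -0.142 to 0.0705 for Egr4, from -0.0118 to 0.119 for Nr4a3, from -0.110 to 0.0332 for Klf9, from -0.0953 to 0.290 for Klf10, from -0.0763 to 0.131 for Zfp36l1 and from -0.162 to 0.0813 for Zfp36l2. Without both arrays it was -0.0764 for Fosl1, -0.0646 for Klf10, -0.0343 for Zfp36l1 and 0.104 for Zfp36l2, and the mean of all probe sets gave 0.0093 for Klf9. The causes were not tested. The mean signals of Fosb and Arc lay below the array medians, where differences can be compressed. On knockout replicate 3, Arc (4.28) lay just above the array median (4.25).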
